A study of Mus musculus with 8 samples.

Results

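The genes described here are 3 FGF receptors (Fgfr1, Fgfr2 and Fgfr3) and 7 genes of the feedback on ERK signalling (Spry1, Spry2, Spry4, Spred1, Dusp6, Etv4 and Etv5). They were chosen by name as a pathway, because the organoids had been grown with FGF2. All 10 were present in the bulk files, which list 38293 gene identifiers, and all 10 in the single-cell files, which list 15150 genes. The samples were tumor organoids of the MMTV-PyMT; MMTV-Cre; Ecadherin-mCFP mouse, in which the mammary-active MMTV promoter drives both the PyMT oncogene and Cre. CRISPR/Cas9 was used to make control and SOX4 knockout (SOX4KO) lines from them, and every sample was one line. Bulk RNA-seq covered 2 control lines (WT1 and WT3) and 3 SOX4KO lines (H7, M4 and H4), and single-cell RNA-seq covered 1 control line (GR17) and 2 SOX4KO lines (GR18 and GR19). All lines carried the same transgenes and grew for 4 days with FGF2 after being split as single cells, so the data hold no comparison with and without FGF2. The labels do not tie the single-cell lines to the bulk lines.

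FGFs bind receptor tyrosine kinases together with heparan sulfate, and the activated receptor signals through FRS2, GRB2 and RAS to the kinases RAF, MEK and ERK. ERK signalling switches on genes that restrain it: Sprouty and Spred proteins act on the receptor and RAS steps, and the phosphatase DUSP6 removes phosphate from ERK in the cytoplasm. The ETS factors ETV4 and ETV5 are transcriptional outputs of the same pathway, so these genes are widely read as markers of FGF and ERK activity. In the mammary gland, FGF receptors act in the growth and branching of the epithelium.

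Between 3050323 and 4678497 reads of a bulk library fell on genes, 16.2% to 28.4% of the reads in the files. M4 had the lowest number and the lowest share. Bulk levels are counts scaled to library size after TMM normalization (CPM). The targeted gene, Sox4, had 295 and 374 CPM in WT1 and WT3 and 199, 179 and 299 CPM in H7, M4 and H4, which came to −0.57 on the log2 scale, with a standard error (SE) of 0.25 and an adjusted p of 0.277 in edgeR. It was not called, and H4 overlapped the control lines. A small insertion or deletion need not lower the transcript, so the count does not test the label. In the single cells Sox4 had 118 CPM in the control library and 82.5 and 110 CPM in the SOX4KO libraries, with ratios of 0.698 (95% counting interval 0.631 to 0.772) and 0.934 (0.851 to 1.03). Of 10 epithelial markers all were counted, with a summed level of 3118 to 3285 CPM in control and 2094 to 2823 CPM in SOX4KO lines. Adipocyte markers were at 0 in all lines, the 6 endothelial markers summed to at most 2.52 CPM and the 8 immune markers to at most 14.4 CPM. The 8 fibroblast markers summed to 1770 and 4427 CPM in control and 1577 to 4844 CPM in SOX4KO lines, nearly all of it Postn, and 0 of the 4 tested were called. Basal markers summed to 1629 and 2463 CPM in control and to 2898 to 7592 CPM in SOX4KO lines, with 5 of 12 tested genes higher and 1 lower. The 15 cycling genes summed to 900 and 901 CPM in control and to 399 to 616 CPM in SOX4KO lines, with 8 genes lower and 0 higher. Their part in the differences below was not tested, and in bulk a change in the make-up of the cells and a change within cells cannot be told apart.

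In bulk, Spry4 and Etv4 rose in the SOX4KO lines. Fgfr3 was also called, but it was tested only because of its counts in these lines. In contrast, the main receptor, Fgfr1, and the most abundant feedback gene, Dusp6, had log2 fold changes near 0. Of the 10 genes, edgeR's quasi-likelihood test called 3 higher and 0 lower at an adjusted p under 0.1, and at an unadjusted p under 0.05 it had 5 higher and 0 lower. DESeq2 also called 3 higher and 0 lower, against 658 higher and 305 lower over all 17930 genes with a count. Over all 11682 genes tested in edgeR, 4.1% were called higher, 2.17% lower and 6.27% in either direction. At an unadjusted p under 0.05 in edgeR, 1216 of these 11682 genes were higher and 897 lower. The median log2 fold change of the 10 genes was 0.42, against 0.0087 over all genes tested. Fgfr3 passed the filter on low counts through the SOX4KO lines alone and so had to differ, and without it 2 of 9 genes were called and the median was 0.35. The SOX4KO and control values did not overlap for 4 of the 10 genes (Spry4, Fgfr3, Etv4 and Spred1). Without Fgfr3 it was 3 of 9 (33.3%), against 36.9% of all genes tested. The count of called genes depended on the lines: without WT1 or without WT3 it was 0, without H7 it was 1, without M4 it was 5, and without H4 it was 2. With 1 control line left, that line is assumed to vary like the SOX4KO lines.

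**Figure D1:**
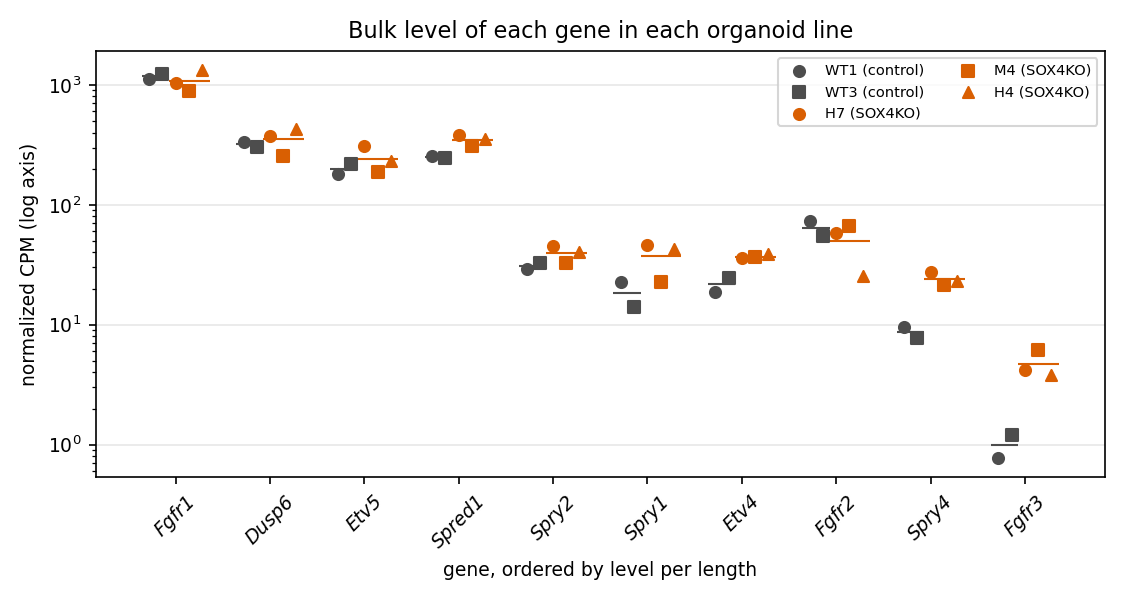
Normalized CPM (log axis) of the 10 genes in each bulk line, ordered by level per length, with control lines in grey, SOX4KO lines in orange and a horizontal line at each group's mean. The SOX4KO points lie above both control points for Spry4, Fgfr3, Etv4 and Spred1 and mix with them for the other 6 genes.

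Per length, the genes ranged over more than 2 orders of magnitude. Levels per length are RPKM, the normalized CPM per kilobase of exon. Fgfr1 (mean of 5 lines 114 RPKM, range 89.9 to 134) and Dusp6 (108 RPKM, range 81.0 to 137) were highest, and their ranges overlapped. Etv5 (54.9 RPKM) and Spred1 (45.7 RPKM) followed, also overlapping with each other, and both stood apart from the genes above and below. Spry2 (17.2 RPKM), Spry1 (10.2 RPKM), Etv4 (9.94 RPKM), Fgfr2 (5.37 RPKM) and Spry4 (3.77 RPKM) formed a lower series in which each gene's range overlapped the next. Fgfr3 was lowest, at 0.450 RPKM, and its highest line (0.855 RPKM) lay below the lowest line of Spry4 (1.63 RPKM). Among receptors, Fgfr1 was thus the predominant transcript in every line. Fgfr4, the remaining signalling FGF receptor, had no count in any of the 5 lines.

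Among the receptors, Fgfr1 (ENSMUSG00000031565) had 1121 and 1236 CPM in WT1 and WT3 and 1033, 887 and 1326 CPM in H7, M4 and H4. The SOX4KO lines lay on both sides of the control lines, and the log2 fold change was −0.12 (SE 0.22, adjusted p = 0.832, edgeR). Fgfr2 (ENSMUSG00000030849), whose isoforms answer to different FGFs in epithelium and mesenchyme, had 72.7 and 55.0 CPM in the control lines and 57.7, 66.2 and 25.6 CPM in H7, M4 and H4. H4 alone was low, about 2.6 times below M4, and the log2 fold change was −0.37 (SE 0.36, adjusted p = 0.666). H4 also had the lowest summed basal markers of the SOX4KO lines (2898 CPM, against 5492 in H7 and 7592 in M4) and the highest luminal ones (4287 CPM, against 2106 and 1919). The control lines WT1 and WT3, with more Fgfr2 than H4, had still lower basal sums (2463 and 1629 CPM). Their luminal sums were 2571 and 2384 CPM. A link of Fgfr2 to these markers was not tested.

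Fgfr3 (ENSMUSG00000054252) was counted 3 and 6 times in WT1 and WT3 and 16, 17 and 16 times in H7, M4 and H4. In CPM these were 0.777 and 1.20 against 4.18, 6.12 and 3.83. It passed the filter on low counts through the SOX4KO lines alone, so a difference was fixed by the filter and the values below are a description. The groups were apart, with a ratio of counts scaled to library size of 4.48 (exact 95% interval 2.18 to 10.4, counting error only) and 2.17 on the log2 scale in the fit (SE 0.53, adjusted p = 0.0706, edgeR). The call was lost without WT1 (adjusted p = 0.413), without WT3 (0.466) and without H7 (0.103). Even in the SOX4KO lines the level of Fgfr3 was a small fraction of that of Fgfr1, at 0.658 ± 0.172 RPKM (SD, n = 3) against 110 ± 22.6 RPKM (SD, n = 3).

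The Sprouty genes encode inhibitors of receptor tyrosine kinase signalling. Spry4 (ENSMUSG00000024427) had 9.58 and 7.77 CPM in WT1 and WT3 and 27.4, 21.6 and 23.2 CPM in H7, M4 and H4. Every SOX4KO line was more than double either control line. The means were 8.67 ± 1.28 CPM (SD, n = 2) and 24.1 ± 2.99 CPM (SD, n = 3), or 1.48 on the log2 scale (SE 0.25, adjusted p = 0.0275, edgeR). Spry4 was the only member past an adjusted p of 0.05. The direction held without each line in turn, with log2 fold changes of 1.33 to 1.63, but the call was lost without WT1 (adjusted p = 0.128) and without WT3 (0.31).

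Spry1 (ENSMUSG00000037211) had 22.8 and 13.9 CPM in the control lines and 46.2, 22.7 and 42.4 CPM in H7, M4 and H4. H7 and H4 were above both control lines and M4 lay at the level of WT1. The log2 fold change was 1.03 (SE 0.35, adjusted p = 0.163, edgeR) and was not called, while without M4 it was 1.28 and was called (adjusted p = 0.0493). Spry2 (ENSMUSG00000022114) had 29.0 and 32.7 CPM in the control lines and 45.7, 32.4 and 40.0 CPM in H7, M4 and H4. Here too M4 lay within the control range, and the log2 fold change was 0.35 (SE 0.21, adjusted p = 0.436). Spred1 (ENSMUSG00000027351), which brings the RAS inhibitor neurofibromin to the membrane, had 254 and 245 CPM in the control lines and 385, 308 and 356 CPM in H7, M4 and H4. All SOX4KO lines were above both control lines, yet Spred1 was not called, at a log2 fold change of 0.49 with SE 0.18 (adjusted p = 0.204, edgeR). Without M4 it was 0.56 and was called (adjusted p = 0.088).

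Dusp6 (ENSMUSG00000019960), the ERK phosphatase, had 334 and 305 CPM in the control lines and 372, 254 and 429 CPM in H7, M4 and H4. M4 lay below and the others above both control lines. The log2 fold change was 0.14 (SE 0.24, adjusted p = 0.822, edgeR), and without H4 it turned to −0.028.

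The ETS factors differed from each other in spread. Etv4 (ENSMUSG00000017724) had 18.9 and 24.5 CPM in WT1 and WT3 and 36.0, 36.4 and 38.6 CPM in H7, M4 and H4. The SOX4KO lines were close together, 1.07 times from lowest to highest, and above both control lines. The means were 21.7 ± 3.96 CPM (SD, n = 2) and 37.0 ± 1.38 CPM (SD, n = 3), or 0.76 on the log2 scale (SE 0.20, adjusted p = 0.0892, edgeR). The log2 fold change was 0.59 to 0.97 without each line in turn, and the call was lost without WT1 (adjusted p = 0.521), WT3 (0.387), H7 (0.129) and H4 (0.157). Etv5 (ENSMUSG00000013089) had 181 and 219 CPM in the control lines and 310, 187 and 230 CPM in H7, M4 and H4. M4 lay within the control range, and the log2 fold change was 0.28 (SE 0.24, adjusted p = 0.614).

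The SOX4KO lines did not move together over the set. M4 was the lowest of the 3 for 7 of the 10 genes and the highest for Fgfr2 and Fgfr3. H7 was the highest for 5. The ratio of the highest to the lowest SOX4KO line ran from 1.07 for Etv4 to 2.58 for Fgfr2, and the ratio between the control lines from 1.04 for Spred1 to 1.63 for Spry1. M4 was also the library with the lowest count on genes, and the part of this was not tested.

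The other genes of the pathway were described from lists of FGF ligands, coreceptors and heparan sulfate genes, adaptors and kinases of the cascade, and further feedback and target genes. Of 57 such genes tested, 5 were called higher and 0 lower by edgeR, with 10 higher and 3 lower at an unadjusted p under 0.05. DESeq2, run on 72 such genes, called the same number higher and 2 lower (Phlda1 and Fos). Over all 17930 genes with a count it called 658 higher and 305 lower. Over all 11682 genes tested, edgeR called 479 higher and 254 lower, with 1216 higher and 897 lower at an unadjusted p under 0.05. Gpc1, a heparan sulfate proteoglycan that can act as an FGF coreceptor, had 104 and 94.4 CPM in WT1 and WT3 and 463, 352 and 288 CPM in H7, M4 and H4. Its rise of 1.89 on the log2 scale (SE 0.24, adjusted p = 0.0128, edgeR) was larger than that of any called member but Fgfr3. The groups were well apart, and the call was lost in 1 of 5 fits that left out a line, the one without WT3 (adjusted p = 0.158).

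Fgfrl1, an FGF receptor without a kinase domain, had 136 and 140 CPM in the control lines and 246, 246 and 244 CPM in H7, M4 and H4 (log2 fold change 0.83, SE 0.16, adjusted p = 0.0376, edgeR). The syndecan Sdc1 had 369 and 411 CPM against 571, 820 and 665 CPM (log2 fold change 0.81, SE 0.21, adjusted p = 0.0872). Hs6st1, which adds sulfate to heparan chains, had 196 and 184 CPM against 284, 316 and 299 CPM (log2 fold change 0.66, SE 0.17, adjusted p = 0.079). In each of these the SOX4KO lines were above both control lines. Leaving out each line in turn, Fgfrl1 was called in 3 of 5 fits, Sdc1 in 2 and Hs6st1 in 1, and the pathway genes called higher fell to 1 without WT1 and 0 without WT3. Of the 18 coreceptor and heparan genes tested in edgeR, 4 were called higher and 0 lower, against 4.1% and 2.17% of all genes tested. DESeq2 also called 4 higher and 0 lower. In edgeR 7 were higher and 0 lower at an unadjusted p under 0.05. At that unadjusted p in edgeR, 1216 of all 11682 genes were higher and 897 lower. The log2 fold change was above 0 for 16 of the 18 genes, with a median of 0.41. Sdc4 (243 RPKM) and Sulf2 (112 RPKM) were, with Sdc1 (149 RPKM), the most abundant per length, and their log2 fold changes of 0.41 and 0.42 were not past the threshold (adjusted p = 0.326 and 0.277).

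**Figure D2:**
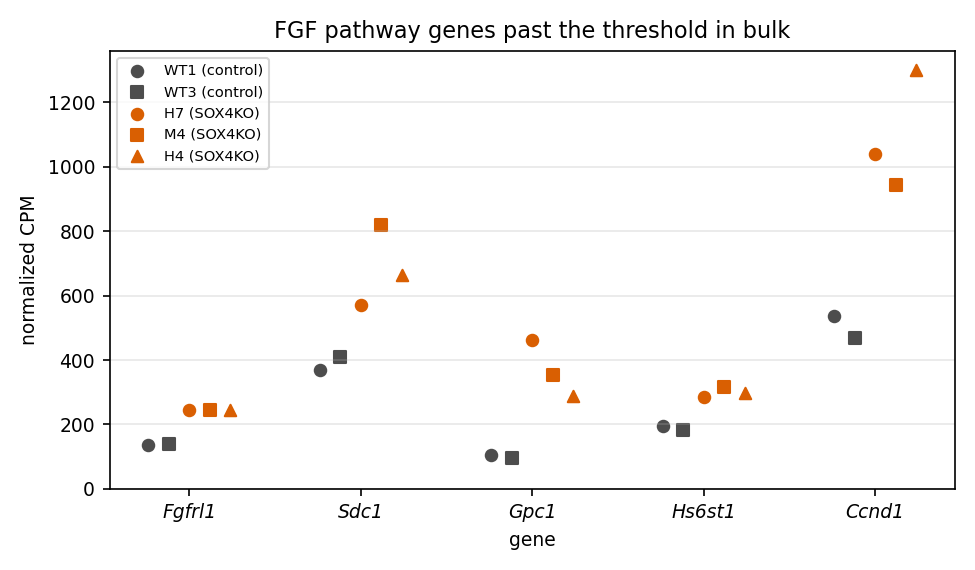
Normalized CPM in each bulk line of the 5 further FGF pathway genes past the threshold, with control lines in grey and SOX4KO lines in orange. For Fgfrl1, Sdc1, Gpc1, Hs6st1 and Ccnd1 each SOX4KO point lies above both control points, and the gap is widest in proportion for Gpc1.

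Among the 14 further feedback and target genes tested, 1 was called. Ccnd1, the cyclin that carries growth factor signals into the cell cycle, had 537 and 468 CPM in the control lines and 1039, 943 and 1300 CPM in H7, M4 and H4 (log2 fold change 1.12, SE 0.22, adjusted p = 0.0376, edgeR), and it was called in 3 of 5 fits without a line. Phlda1 and Ier3, the next most abundant of this list per length, had log2 fold changes of −0.66 (adjusted p = 0.134) and 0.33 (adjusted p = 0.623). The median of the list was −0.06. Of the 24 adaptors and kinases, which had a median of 0.11, edgeR and DESeq2 called none, with 2 higher and 1 lower at an unadjusted p under 0.05. The most abundant per length, Mapk3, Grb2 and Hras, had log2 fold changes of 0.22, 0.14 and 0.47. Of 18 ligands, Fgf1 alone was tested, at 82.3 and 141 CPM in the control lines and 70.5, 95.03 and 91.7 CPM in H7, M4 and H4 (log2 fold change −0.38, adjusted p = 0.486). Transcripts of Fgf2, the factor that was added to the medium, were at 0.199 to 1.20 CPM.

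Promoter windows from 250 bases before to 50 bases after a start were at hand for 7 of the 10 genes, with 9 windows in all (RefSeq, GRCm38.p6, a different build from the one the counts were made on). They held 43.7% to 74% G and C, against a median of 52.7% over all 32851 windows. The SOX core ACAAAG, searched on both strands, was found in the windows of Spry2 and Etv5 and in 18.7% of all windows, and its other form ACAATG was in none of the 9 and in 12.6% of all. The ETS core CCGGAA, the kind of site that ETV4 and ETV5 bind, was found once, in the Spry2 window at 34 bases after the start, and in 14.9% of all windows. The AP-1 site TGANTCA (7.81% of all windows) and the CRE TGACGTCA (1.79%) were in none of the 9. These letters do not overlap one another in the windows with a match, and a match is not a bound site. The Spry2 and Etv5 sequences are shown because they hold the SOX core, and one of the pair of Fgfr3 windows because Fgfr3 was called. Each runs 5′ to 3′ from 250 bases before the start to 3 bases after it, with the SOX core in capitals. In Spry2 (GRCm38.p6, chr14:105896817-105897069, minus strand) the core lies 137 bases before the start and reads as its reverse complement. In Etv5 (chr16:22438366-22438618, minus strand) it spans the start. In Fgfr3 (chr5:33721474-33721726, plus strand) no searched motif was found.
Spry2: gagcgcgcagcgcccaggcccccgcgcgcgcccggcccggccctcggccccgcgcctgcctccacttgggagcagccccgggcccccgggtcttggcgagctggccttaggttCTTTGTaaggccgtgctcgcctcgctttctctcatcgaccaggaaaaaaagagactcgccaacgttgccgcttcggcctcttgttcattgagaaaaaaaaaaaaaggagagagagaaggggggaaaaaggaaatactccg
Etv5: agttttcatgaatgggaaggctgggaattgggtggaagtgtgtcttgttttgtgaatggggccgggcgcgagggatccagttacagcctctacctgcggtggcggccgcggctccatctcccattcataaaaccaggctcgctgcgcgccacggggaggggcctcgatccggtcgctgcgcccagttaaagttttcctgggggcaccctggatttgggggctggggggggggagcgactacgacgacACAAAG
Fgfr3: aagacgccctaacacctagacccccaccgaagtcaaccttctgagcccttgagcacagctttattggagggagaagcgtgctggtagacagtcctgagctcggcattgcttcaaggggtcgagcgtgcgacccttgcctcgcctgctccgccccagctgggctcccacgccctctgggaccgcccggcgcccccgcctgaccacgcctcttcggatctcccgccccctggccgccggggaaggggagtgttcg

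In the single cells, the picture over these genes was a different one. Etv4 and Spry1 were lower in both SOX4KO libraries than in the control library, Dusp6, Etv5 and Fgfr1 were lower by less, and Spry4, Spry2 and Spred1 differed little between the libraries. The libraries held 369, 369 and 362 cells in GR17, GR18 and GR19 with a median of 19840 to 21880 UMIs a cell. With 1 control library there is no test between genotypes. Values are CPM, here UMIs of a gene over all cells of a library scaled to a total of 1000000, with exact 95% Poisson intervals that cover counting error only. Of the 10 genes, 6 reached 20 CPM on average over the libraries, and none of these was at least 2-fold lower or higher in both SOX4KO libraries. Over the 6303 genes at that level, 0.317% were that much lower and 1.92% that much higher. The median log2 difference of the 6 genes from GR17 was −0.32 in GR18 and −0.54 in GR19, against 0.0094 and −0.05 over all genes at that level. Cycling genes summed to 3587 CPM in GR17, 2781 in GR18 and 2828 in GR19, luminal markers to 1690, 2234 and 3962 CPM, and basal markers to 5101, 5340 and 3066 CPM. Mitochondrial genes took 11.4%, 12.47% and 15.1% of UMIs. The part of these in the differences was not tested. Leaving mitochondrial genes and Rn45s out of the totals changed the sign of no member's mean over the SOX4KO libraries. In GR19 alone, Spry4 turned from −0.0039 to 0.076 on the log2 scale.

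Etv4 had 61.8 CPM in GR17 (interval 56.4 to 67.6), 33.8 CPM in GR18 (29.9 to 38.1) and 20.1 CPM in GR19 (17.2 to 23.4). The ratios to control were 0.547 (0.470 to 0.637) and 0.326 (0.271 to 0.389), so the SOX4KO libraries also differed from each other beyond counting error. Spry1 had 47.1 CPM in GR17, 20.1 in GR18 and 23.6 in GR19, with ratios of 0.427 (0.353 to 0.516) and 0.502 (0.420 to 0.599). These were the lowest ratios among the members above 20 CPM. Dusp6, the member with the most UMIs, had 437, 325 and 293 CPM, with ratios of 0.744 (0.707 to 0.784) and 0.671 (0.636 to 0.707). Etv5 had 160, 138 and 112 CPM, and Fgfr1 237, 214 and 193 CPM. For both the control library was highest and the ratios lay between 0.701 and 0.902.

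Spred1 had 110 CPM in GR17, 111 in GR18 and 126 in GR19, with ratios of 1.01 (0.920 to 1.11) and 1.14 (1.04 to 1.25). The lower-level genes rested on 103 to 163 UMIs in a library. Spry2 had 16.6, 16.4 and 19.6 CPM and Spry4 17.9, 15.0 and 17.8 CPM, and every interval of their ratios to control included 1. For Spry4 the interval of the ratio was 0.650 to 1.08 in GR18 and 0.785 to 1.27 in GR19, ranges that do not hold the bulk fold of 2.79. Fgfr2 had 13.4, 19.1 and 16.8 CPM, with ratios of 1.43 (1.11 to 1.86) and 1.26 (0.966 to 1.64). Fgfr3 had only 8, 5 and 3 UMIs in all, with ratios of 0.602 (0.155 to 2.09) and 0.349 (0.0596 to 1.45). Both intervals included 1, and neither held the bulk ratio of counts of 4.48. At this depth a difference within these intervals was not detectable.

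**Figure D3:**
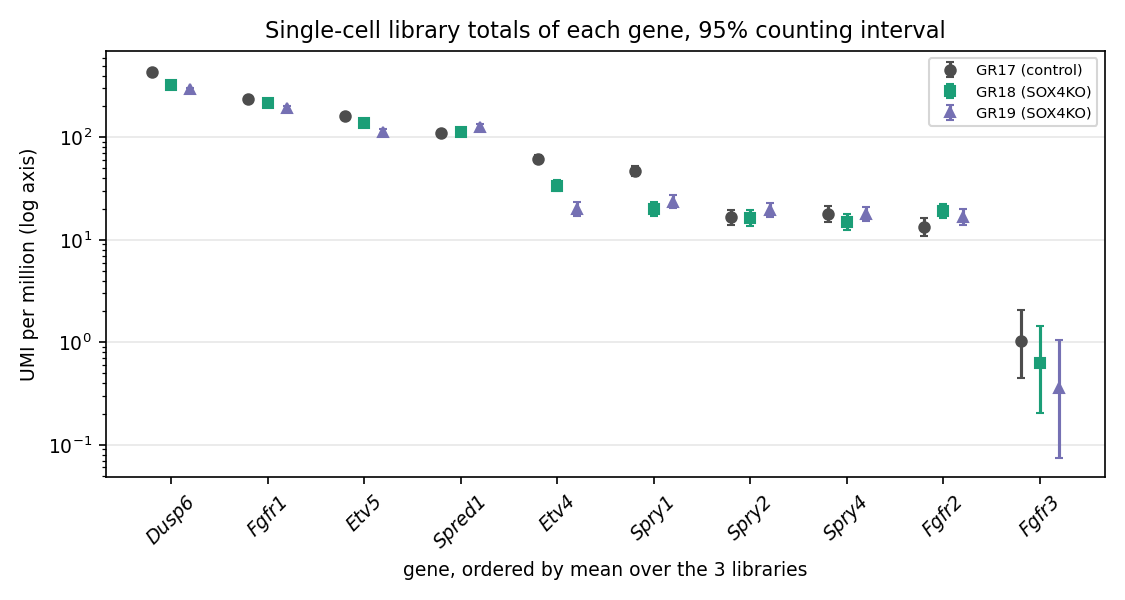
CPM (scaled UMIs, log axis) of each gene summed over the cells of the control library GR17 (grey circles) and of the SOX4KO libraries GR18 (green squares) and GR19 (purple triangles), with 95% Poisson intervals. Etv4 and Spry1 show the widest gap between the control and both SOX4KO libraries, and Fgfr3 lies at or below 1.04 CPM in each library.

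Set side by side, 7 of the 10 genes had opposite signs in bulk and in both SOX4KO single-cell libraries: Etv4, Spry1, Dusp6, Etv5, Spry4 and Fgfr3 were higher in bulk and lower in single cells, and Fgfr2 the reverse. All 3 genes called in bulk were among them. However, Spry4 had a ratio of 0.997 in GR19, and Fgfr3 rested on 8, 5 and 3 UMIs. With mitochondrial genes and Rn45s left out of the totals, Spry4 turned to 0.076 on the log2 scale in GR19. The share of all genes with opposite signs was not computed. For 4 of the 7 (Etv4, Spry1, Dusp6 and Etv5) both counting intervals of the ratio to control excluded 1, and of these Etv4 alone was called in bulk. In bulk, 3 of 3 SOX4KO lines had more Etv4 than either control line, and in single cells 2 of 2 SOX4KO lines had less than the control line. The log2 values were 0.76 in bulk against −0.85 (GR18) and −1.57 (GR19) in single cells for Etv4, and 1.03 against −1.19 and −0.96 for Spry1. The assays and the number of control lines differ together and cannot be told apart. Whether the lines are the same in both assays is not known from the labels. Among all genes called in bulk the same direction was the more frequent. Of the genes called higher in bulk, 246 reached 20 CPM in single cells, and 151 of these (61.4%) were higher in both SOX4KO libraries while 44 (17.9%), with Etv4 among them, were lower in both. Over 5923 genes tested in bulk at that level, 38.8% were higher in both and 42.4% lower in both. Of the 6 members at that level, 5 were lower in both (Fgfr1, Spry1, Dusp6, Etv4 and Etv5). Ccnd1 had 963, 785 and 877 CPM in GR17, GR18 and GR19, without the bulk rise, and Gpc1 had 10.2, 9.49 and 4.70 CPM. Fgfrl1 was higher in both assays, with 27.5 CPM in GR17, 50.8 in GR18 and 35.2 in GR19. Sdc1 had 337, 354 and 278 CPM and Hs6st1 242, 290 and 215 CPM in these libraries. Both were higher than GR17 in GR18 and lower in GR19.

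**Figure D4:**
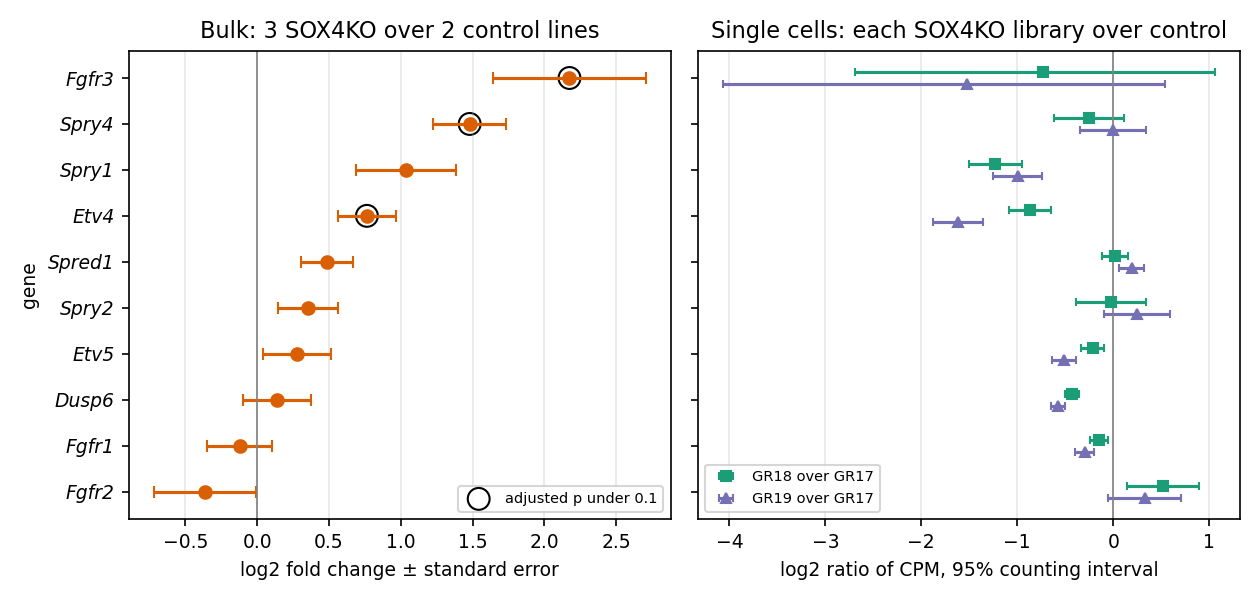
Left, bulk log2 fold change (3 SOX4KO over 2 control lines) with its standard error, and circles around the genes with adjusted p under 0.1 (Spry4, Fgfr3 and Etv4). Right, log2 ratio of each SOX4KO single-cell library to the control library with its 95% counting interval, in which 7 genes lie on the other side of 0 from their bulk values in both libraries, with Etv4 and Spry1 the farthest from 0 of those above 20 CPM.

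Shares of cells with a UMI gave the same order for Etv4 and Spry1. Cells with at least 8000 UMIs were thinned to that number, which left out 17, 25 and 13 cells of GR17, GR18 and GR19. Shares before thinning are of all cells. After thinning, Etv4 was seen in 37.2% of GR17 cells, 20.3% of GR18 cells and 16.1% of GR19 cells (64.5%, 41.7% and 32.9% before). Spry1 was seen in 25.9%, 9.88% and 16.3% after thinning (49.6%, 26.0% and 32.9% before). Dusp6 and Fgfr1 were found in most cells, at 79.7% to 87.5% and 70.2% to 78.1% after thinning. Fgfr2 was seen in 9.66% to 14.0% of the thinned cells. No cell type that should lack these genes was present to measure background from free RNA.

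The cells fell into 7 clusters, labelled A to G. Clusters A (227 of 232 cells) and F (103 of 118) came mainly from the control line, and B, C, D, E and G mainly or wholly from the SOX4KO lines. Because cluster and line go together, levels by cluster are a description. Fgfr1, Spry1 and Dusp6 were among the variable genes used for clustering. Basal markers were high in B, C, G and A (median log2 of 1.27, 0.84, 0.80 and 0.71 over the mean of the clusters), and luminal markers in D and E (1.63 and 1.88). F lay between, at 0.03 for basal and 0.64 for luminal markers. Cycling genes were high in A, C and D and low in B and E, and G was led by genes of mitosis such as Aspm and Cenpe.

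Fgfr2 was higher in the clusters with high basal markers. It had 28.2 CPM in B, 25.0 in G, 22.4 in C and 14.95 in A, against 6.63 in D, 8.35 in E and 7.11 in F, and the intervals of B, C and G (lowest bound 17.9) lay above those of D, E and F (highest bound 12.53). The interval of A (11.85 to 18.6) overlapped those of E and F. Within the SOX4KO libraries, Fgfr2 had 33.3 CPM in B and 2.47 CPM in E of GR18, and 22.0 CPM in B and 11.6 CPM in E of GR19. Both libraries showed the same order, but the value in E of GR18 rested on 3 UMIs. In GR19 the intervals of B (15.5 to 30.3) and E (6.48 to 19.1) overlapped. In the control library Fgfr2 had 15.05 CPM in A and 7.13 CPM in F. The cluster levels of Fgfr1, in contrast, ran only from 178 CPM in D to 244 CPM in F.

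Etv4 had 65.2 CPM in A and 64.5 CPM in F, the clusters of the control line, 43.7 in G and 42.2 in C, and 19.4 in B, 19.4 in D and 10.2 in E. Its highest and lowest clusters differed 6.42-fold, the widest range of the members above 20 CPM. Over the 10 pairs of a cluster and a SOX4KO library with at least 20 cells, Etv4 ran from 8.49 to 58.9 CPM, and the control library had 65.7 and 67.2 CPM in its 2 such clusters. The values did not overlap. The same held for Spry1, at 14.4 to 26.7 CPM against 34.5 and 53.0 CPM, and for Dusp6, at 223 to 396 CPM against 427 and 451 CPM. Both control groups were cells of the single library GR17, so these groups of cells are not replicates. The share of all genes without overlap was not computed. With other clustering settings, a small group of control cells (22 to 36) fell in a further cluster with Etv4 at 26.9 to 32.5 CPM, inside the SOX4KO range, so for Etv4 the separation was lost in all 3 alternatives. For Dusp6 it was lost with 20 principal components (381 CPM in the lowest control group against 392 CPM in the highest SOX4KO group), and for Spry1 it held in all 3. For Etv5 (98.5 to 169 CPM against 151 and 200 CPM) and Fgfr1 (165 to 244 CPM against 229 and 257 CPM) the ranges overlapped. Spry4 was highest in E (23.95 CPM) and lowest in B (11.6 CPM), and Spry2 and Spred1 differed by at most 1.39-fold between clusters.

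**Figure D5:**
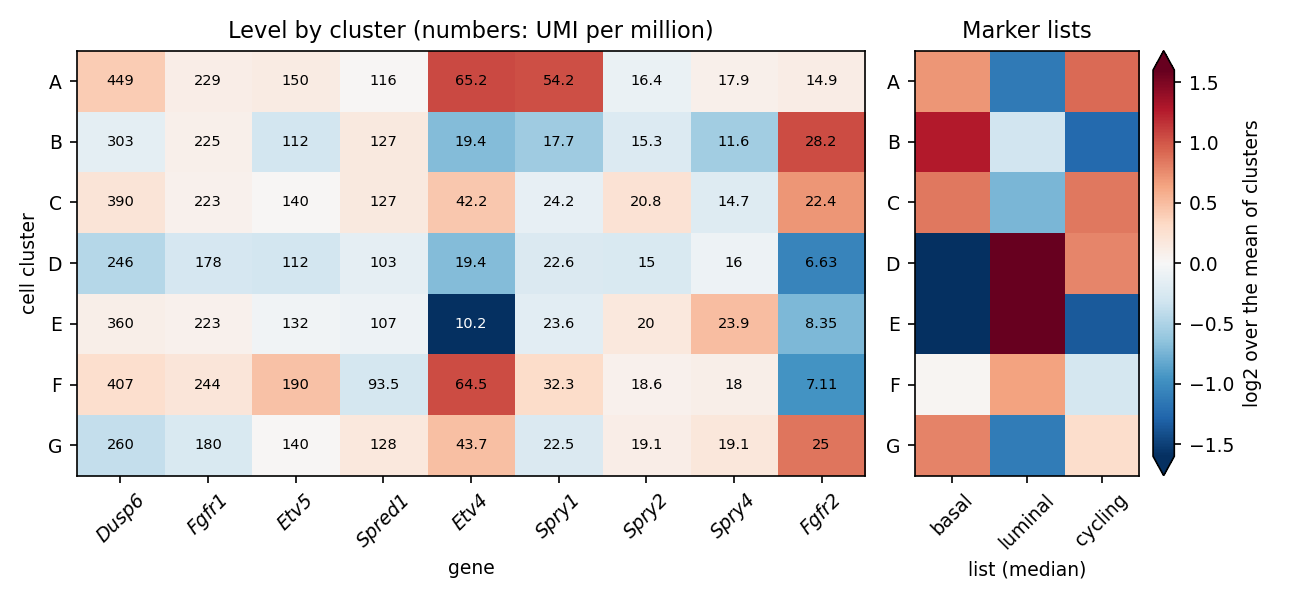
Left, CPM of 9 genes (Fgfr3, with 16 UMIs in all, is left out) in each of the 7 clusters of cells, coloured by log2 over the mean of the clusters. Right, the median of the basal, luminal and cycling marker lists on the same colour scale, which is clipped at its ends; Fgfr2 is high in B, C and G, where basal markers are high, and Etv4 is high in A and F.

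From cell to cell the members varied with little relation to each other. Pearson's r of log values across the cells of a library, averaged over the 3 libraries, was at most 0.159 (Dusp6 with Etv5) among pairs of the 6 members above 20 CPM, and these sparse counts share each cell's depth. The genes most alike to Dusp6 were Ccnd1 (mean r 0.273), Tnfrsf12a (0.249) and Cxcl1 (0.237). Ccnd1 was also the nearest to Etv5 (0.248), ahead of Cmah (0.209) and Trf (0.201). Etv4 was most alike to Cmah (0.245), Serpinf1 (0.237) and Tnnt2 (0.234). Fgfr1 had Nfib (0.235), Slc12a2 (0.205) and Trf (0.203), Spry1 had Slc7a1 (0.155), Kitl (0.155) and Gatad2a (0.148), and Spred1 had Sdpr (0.17), Tpm1 (0.169) and Lamb1 (0.167). All of these are weak.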

How the data were processed

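Bulk RNA-seq covered 2 control and 3 SOX4KO organoid lines, and plate-based single-cell RNA-seq 1 control and 2 SOX4KO lines. The authors deposited raw counts: reads per Ensembl gene for bulk, and UMI counts per gene and well for single cells, without normalization. The submitters' processing notes name STAR 2.4.2a, HTSeq and Seurat and the builds NCBIM37 and mm9. The annotation release and the strand setting of the counting are not given in the sources used here, so reads of overlapping or antisense genes cannot be told apart. Symbols (36345 of 38293 identifiers) and exon lengths came from GENCODE M21.

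Bulk genes were filtered with filterByExpr, normalized by TMM and tested, SOX4KO over control, with edgeR 4.0.16 (glmQLFit, glmQLFTest, two-sided, R 4.3.3) on all 11682 genes with Benjamini-Hochberg adjustment. A gene counted as called below an adjusted p of 0.1. Lines are the replicates, and since nothing says that they came from separate animals, p-values measure only the spread between lines. Wells with at least 1000 UMIs were kept, which left out 15, 15 and 22 wells, and no doublet caller was run. Wells over 2 times the median UMI numbered 8, 20 and 11. Cells were clustered with Seurat 5.3.0 (2000 variable genes, 10 principal components, 20 neighbours, resolution 0.5). Single-cell log2 differences used a pseudocount of 1 CPM. On simulated bulk counts (3 lines against 2), of 200 genes among 11682 that were changed 3-fold edgeR found 180 with 15 false calls, and DESeq2 1.42.0 found 171 with 17. Every simulated gene had the same dispersion (0.043), so these numbers check the code and need not hold for the real lines.

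Alternatives covered DESeq2, RLE factors, other filters and thresholds, each line left out, UMI minimums, thinning and clustering settings. The members, the lists and the tests were chosen with earlier results of these data known. All members were named, with pathway genes that were called or among the 3 highest per length of their list, and the 3 genes most correlated with each member above 20 CPM. Phlda1 and Fos under DESeq2, Fgf2, Fgfr4, and Gpc1, Sdc1 and Hs6st1 in single cells, were named after their values were seen. The comparison of bulk calls with single cells was chosen after seeing the data.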

Additional observations from a re-analysis of the deposited data

Results flagged for a closer look

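Etv4 stood out because bulk and single-cell lines moved in opposite directions. Its log2 fold change was 0.76 in bulk, with 3 of 3 SOX4KO lines above both control lines, and the mean log2 difference in single cells was −1.21, with 2 of 2 SOX4KO libraries below the control library and counting intervals that did not reach it. The difference between the assays was not tested. Etv4 was not alone in this: of 246 genes called higher in bulk and at 20 CPM in single cells, 44 (17.9%) were lower in both SOX4KO libraries. Spry1 and 5 other members had opposite signs as well, but for Fgfr2, Fgfr3 and Spry4 at least 1 counting interval of the ratio included 1. For Spry1, M4 lay in bulk between the control lines. No group had 4 samples, so no search for a single deviating sample was made.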

How the results depend on the processing

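The number of members called in bulk, 3 with all lines, was 1 at an adjusted p under 0.05, 4 without a filter beyond 1 count, and 0 to 5 when each line was left out. The pathway genes called, 5 with all lines, numbered 3 at the stricter threshold, 10 without the filter and 1 to 8 over the leave-outs. Over all genes, 479 higher and 254 lower became 241 and 113 at the stricter threshold, 1008 and 678 without the filter, and 30 to 624 and 26 to 382 over the leave-outs. DESeq2, RLE factors and a filter at 1 CPM in 2 lines kept the member and pathway counts within 1.5 times. Of the fold changes of single members, Dusp6 turned from 0.14 to −0.028 without H4 and reached 0.32 without M4. In single cells, 7 of 10 members were lower in both SOX4KO libraries, among them Fgfr3, with 3 to 8 UMIs, and Spry4, with a ratio of 0.997 in GR19. Of the 6 members at 20 CPM or more, 5 were lower in both, against 42.4% of the 5923 genes tested in bulk at that level. The count of 7 moved by less than 1.5 times in every alternative tried. Spry2 turned on the log2 scale from 0.11 to −0.020 without GR19 and was 0.23 without GR18. Of 9 members without Fgfr3, 4 differed at least 2-fold between their highest and lowest clusters. Under each of the other clustering settings it was 3, with Spry4 at 1.66- to 1.97-fold. The share of all genes that differed this much was not computed, and Spry1, one of the 4, was among the variable genes used for clustering. The gap in Etv4 between control and SOX4KO groups of cells closed under each of the other settings.

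No paired analysis was possible because the labels give no number that links the lines. The cause of these changes was not tested. The main limits are 2 control lines in bulk and 1 control library in single cells, low counts of Fgfr3, and clusters that separate by line. The depth leaves differences in genes under about 20 CPM in single cells poorly resolved.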
